A study of Mus musculus with 4 samples.

Results

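Regulatory T cells (Treg) are CD4 T cells that restrain other lymphocytes and are defined by the forkhead transcription factor Foxp3. They hold high levels of the IL-2 receptor alpha chain Il2ra and of the inhibitory receptor Ctla4, make little or no IL-2 themselves, and keep other cells in check through consumed IL-2, blocked costimulation and secreted or surface suppressive molecules. Treg that settle in lung and other tissues are known for the IL-33 receptor Il1rl1, the epidermal growth factor family ligand Areg and the receptor Klrg1, while Treg that recirculate through lymph nodes keep homing genes such as Ccr7.

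Single-cell RNA sequencing was performed on viable (DAPI-negative) cells dissociated from lung tumors of 4 female mice. Tumors were initiated with intratracheal Lenti-Cre and grew for 16 weeks, and for the last 2 weeks all mice were given tamoxifen, at 4 mg per dose in a volume of 200 µL. All carried the Cre-activated oncogene KrasLSL-G12D, the conditional allele Lkb1XTR/XTR on both chromosomes and the reporter Rosa26LSL-tdTomato. The 2 Restored mice also had the tamoxifen-dependent recombinase FLPo-ERT2 on the other Rosa26 allele (Rosa26LSL-tdTomato/FLPo-ERT2), which the 2 Non-Restored mice lacked. Treg are host cells: they carry these alleles in the germline, and FLPo-ERT2 sits at Rosa26 rather than behind a tumor-specific promoter.

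Transcripts were counted as unique molecular identifiers (UMIs), 58624795 in all, in a single matrix that spans 20351 cells and 31055 features and does not say from which mouse a cell came. It was therefore used as 1 sample. No comparison of Restored with Non-Restored mice, no test and no p-value is given. If the 4 mice gave unequal numbers of each cell type, differences between mice and between the cell groups below cannot be told apart. Barcodes shared between libraries were not analysed here. All intervals are exact, at the 95% level, and cover counting error only. Levels are given in CPM, counts per 1000000 UMIs summed over a group of cells, and "2-fold" is a size cut on (CPM + 10) between groups of cells, not a test.

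A cell counted as Treg when it had at least 200 detected genes, at most 13.4% mitochondrial UMIs, at least 1 UMI of Cd3d, Cd3e or Cd3g and at least 1 UMI of Foxp3, none of Cd8a, Cd8b1 or Cd79a, and at most 2 UMIs of the complement genes C1qa, C1qb and C1qc. This rule found 272 cells of the 19892 that passed the filters on genes and mitochondrial UMIs, or 1.37% (1.21 to 1.54). They were 6.43% (5.71 to 7.22) of the 4227 cells with the same T cell criteria and 30.3% (27.3 to 33.4) of the 898 cells made up of Treg and the comparison population, 626 CD4 T cells without a Foxp3 UMI (Foxp3-zero CD4). The comparison cells had to show a Cd4 UMI, and the Treg did not.

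Foxp3 lies on the X chromosome (mm10, chrX:7573644-7595245, plus strand) and overlaps the noncoding gene Flicr on the same strand. It chose the members, so its level is a description: 180 of the 272 Treg held 1 Foxp3 UMI, 53 held 2, 25 held 3, 12 held 4 and 2 held 5, which gave 419 UMIs or 573 CPM (519 to 631). Of the 350 filtered cells with a Foxp3 UMI, 58 were left out for lack of a Cd3 UMI, 14 for a Cd8 UMI, 4 for Cd79a and 2 for C1q UMIs, and 22 of those 58 held both Ikzf2 and Ctla4. Just inside the mitochondrial limit the highest Treg had 12.8%, and just outside it the lowest of 8 otherwise passing cells had 14.1%. No otherwise passing cell fell under the gene minimum, the fewest genes in a Treg being 374.

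Foxp3 was rare in classes of other lineages, which were set to have no Cd3d, Cd3e or Cd3g UMI. Cells of those lineages that had taken up Cd3 RNA were therefore not counted, and the spread of free RNA was not tested. Foxp3 UMIs were found in 0 of 1500 B cells, which allows a share of up to 0.2%, and in 0.126% of 2381 C1q macrophages, 0.216% of 2315 alveolar macrophages and 0.13% of 1538 endothelial cells, at median depths of 1435, 4329, 5455 and 1935.5 UMIs against 1933 in Treg. A Foxp3-zero CD4 cell can still be a Treg whose Foxp3 was missed. When each Treg was thinned to 1000 UMIs, Foxp3 was kept in 64.6% (58.1 to 70.6) of the 237 cells deep enough. These cells were chosen for a Foxp3 UMI, so the share does not say how many Foxp3-zero CD4 cells are Treg.

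The label held up against markers that the rule did not use. Ikzf2 (Helios; mm10, chr1:69531214-69687245, minus strand), a transcription factor of Treg that stabilizes their state, stood at 1430 CPM in Treg and 197 CPM in Foxp3-zero CD4, a log2 ratio of 2.86 (2.66 to 3.06), and 227 Treg (83.5%) held a UMI of it. Ctla4 (mm10, chr1:60887000-60915832), which strips the costimulatory ligands from antigen-presenting cells, stood at 812 CPM against 271 CPM, a log2 ratio of 1.59 (1.39 to 1.78). Il2ra (mm10, chr2:11642807-11693193) stood at 227 CPM against 66.7 CPM, a log2 ratio of 1.77 (1.39 to 2.16). At least 1 of these 3 genes was seen in all but 13 Treg (4.78%), whereas 401 of 626 Foxp3-zero CD4 cells (64.1%) had none of them. All 3 were seen together in 63 Treg (23.2%) and 17 comparison cells (2.72%).

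Depth was similar in the groups, with a median of 1933 UMIs and 887 genes in Treg and 1703.5 UMIs and 715 genes in Foxp3-zero CD4. Ribosomal protein genes took 27.7% of the UMIs in Treg and 33.8% in the comparison cells, and beside this the median gene was 0.18 higher in Treg on the log2 scale, which is the baseline for the ratios below. A Cd4 UMI was seen in 61 Treg (22.4%), while a T cell receptor constant gene (Trac, Trbc1 or Trbc2) was seen in 88.2% of Treg and 86.7% of Foxp3-zero CD4. With Cd4 required of Treg as well, the core ratio below stayed within its counting error and more genes passed the 2-fold size (196 higher and 110 lower).

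The comparison with Foxp3-zero CD4 cells asked which genes mark Treg among CD4 T cells of these tumors. Of 2783 genes at 50 CPM or more in either group, 100 (3.59%) were at least 2-fold higher in Treg and 61 (2.19%) at least 2-fold lower. The lists below were counted over all their members, including those under 50 CPM.

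Core Treg genes stood above the background of all genes. Of 10 core genes other than Foxp3, 7 were at least 2-fold higher in Treg and none lower, their median log2 ratio was 1.51 against 0.18 over all genes, and together they stood at 4371 CPM (4220 to 4525) against 1236 CPM. Beside Ikzf2, Ctla4 and Il2ra these were the tumor necrosis factor receptors Tnfrsf4 (OX40) and Tnfrsf18 (GITR), the folate receptor family member Izumo1r (FR4) and the Helios relative Ikzf4 (Eos). Tnfrsf4 stood at 554 CPM against 148 CPM, a log2 ratio of 1.91 (1.66 to 2.16). Tnfrsf18 stood at 503 CPM against 175 CPM, a log2 ratio of 1.52 (1.28 to 1.77). Capg lay at the 2-fold limit, with a log2 ratio of 1.03 (0.81 to 1.24) before the 10 CPM were added and just under it after. Nrp1, a semaphorin receptor common on thymus-derived Treg, had a log2 ratio of 0.66 (0.16 to 1.16). Lrrc32, the surface anchor of latent TGF-beta, was barely captured, with 5 UMIs in each group.

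**Figure D1:**
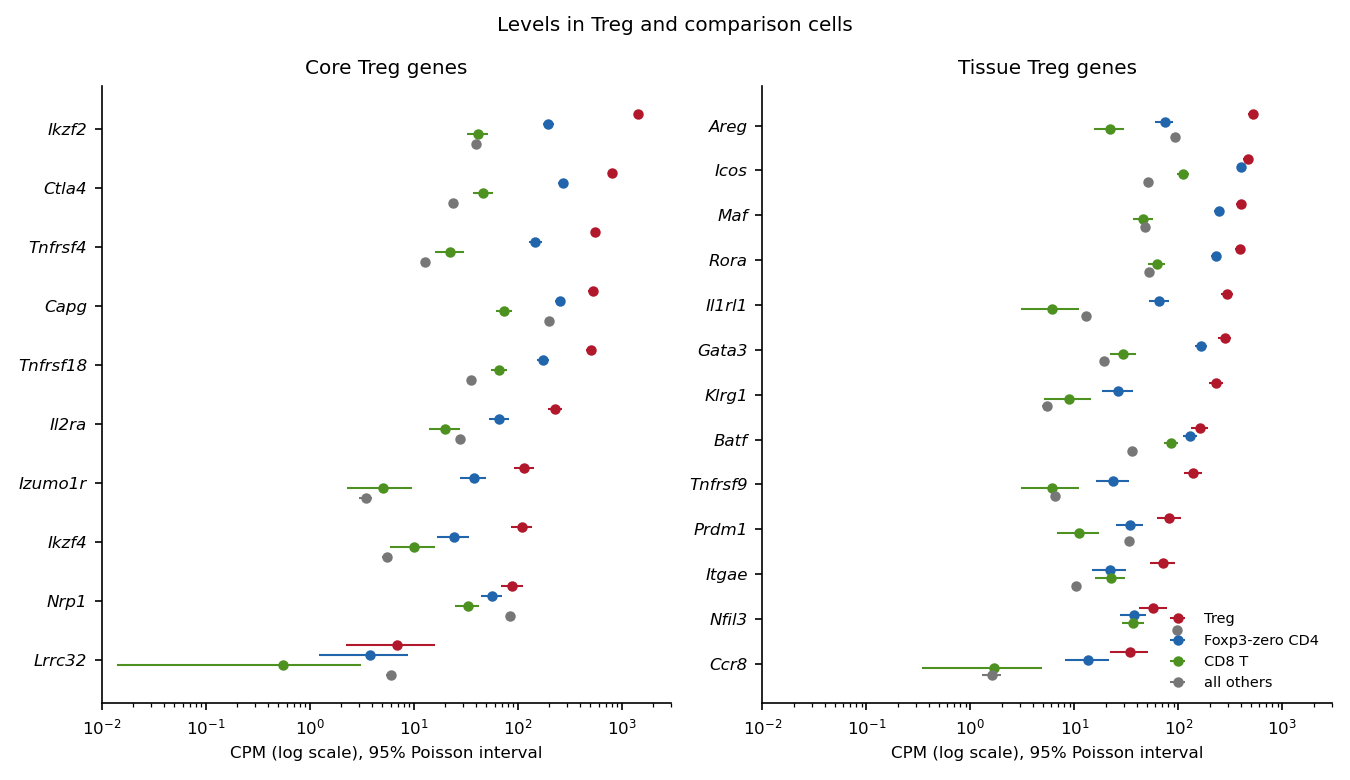
Level of each core (left) and tissue (right) Treg gene in CPM on a log axis, with exact 95% Poisson intervals, in 272 Treg, 626 Foxp3-zero CD4 cells, 798 CD8 T cells and all other cells. Treg hold the highest level for each gene shown except Nfil3, which is higher in all other cells than in Treg; the step from Treg to Foxp3-zero CD4 is wide for Ikzf2 (1430 against 197 CPM) and narrow for Icos (465 against 396 CPM).

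Tissue Treg genes were also higher, but only in part. Of 13 such genes, 6 were at least 2-fold higher in Treg and none lower, with a median log2 ratio of 0.90, and the list summed to 3126 CPM (2999 to 3257) against 1460 CPM. Areg (mm10, chr5:91139599-91148432), a growth factor for epithelial repair, stood at 517 CPM against 73.5 CPM, a log2 ratio of 2.81 (2.49 to 3.15). Klrg1 (mm10, chr6:122270596-122282882, minus strand), a cadherin-binding inhibitory receptor, stood at 230 CPM against 26.5 CPM, a log2 ratio of 3.11 (2.58 to 3.68). Il1rl1 (mm10, chr1:40429570-40465415), also called ST2, stood at 295 CPM against 65.2 CPM, a log2 ratio of 2.18 (1.81 to 2.56). The costimulatory receptor Tnfrsf9 (4-1BB), the integrin Itgae (CD103) and the repressor Prdm1 (Blimp-1) completed the 6, with log2 ratios of 2.57, 1.69 and 1.27. The transcription factors of the same program were closer to the comparison cells: Gata3 had a log2 ratio of 0.76 (0.48 to 1.04), Rora 0.77 (0.53 to 1.01) and Maf 0.72 (0.48 to 0.95), while for Batf the interval held 0 (0.32, -0.03 to 0.67). Icos, the costimulatory receptor, was held by both groups, at 465 and 396 CPM.

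These genes were seen in many Treg rather than in a few. Il1rl1, Areg or Klrg1 was seen in 179 of 272 Treg (65.8%, 59.8 to 71.4), in 73 of 626 Foxp3-zero CD4 cells (11.7%, 9.25 to 14.4) and in 30 of 798 CD8 T cells (3.76%). At least 2 of the 3 were seen in 99 Treg (36.4%) and 22 Foxp3-zero CD4 cells (3.51%). After thinning to 1000 UMIs, Areg was seen in 34.6% of Treg and 3.89% of Foxp3-zero CD4, Klrg1 in 23.6% and 1.35%, and Il1rl1 in 22.8% and 3.72%, against 43.8% and 6.23%, 30.9% and 2.72%, and 39.3% and 6.71% without thinning. The thinned shares in B cells, which should lack these genes, were 0.228% for Areg and 0 of 1316 cells for the other two. The same held for Hopx, a homeodomain protein found among the 15 genes highest in Treg: it stood at 305 CPM against 50.03 CPM and, after thinning, was seen in 24.9% and 4.23% of cells.

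Genes of suppression were mixed. Of 10 suppressive molecules, 5 were at least 2-fold higher in Treg, 1 lower, and the median log2 ratio was 0.68. Fgl2, a secreted fibrinogen-like suppressor, had the most UMIs of the 5, at 185 CPM against 45.5 CPM and a log2 ratio of 2.02 (1.57 to 2.48). Ebi3, a subunit shared by IL-27 and IL-35, stood at 64.3 CPM against 18.95 CPM, but its IL-35 partner Il12a had 0 UMIs in both groups. The TGF-beta-activating integrin Itgb8 had a log2 ratio of 1.96 (0.96 to 3.03), the ectonucleotidase Entpd1 (CD39) 1.53 (0.54 to 2.56) and the cytotoxic protease Gzmb 1.76 (0.84 to 2.73), the last from 12 Treg with 11 of its 30 UMIs in 1 cell. Tgfb1 was close to the comparison, at 228 CPM against 176 CPM, and Nt5e (CD73), the other ectonucleotidase of the adenosine route, had an interval that held 0 (0.22, -0.22 to 0.66). Il10 gave 3 UMIs in Treg and 5 in Foxp3-zero CD4, too few for a difference to be detectable at this depth. The inhibitory receptor Lag3 was the lower one, with 5 UMIs (6.84 CPM) against 36 (27.3 CPM). Some of the 5 higher genes were not confined to T cells. In 1515 neutrophils Fgl2 stood at 692 CPM, Entpd1 at 207 CPM and Ebi3 at 58.9 CPM, seen in 761, 330 and 105 cells. Gzmb stood at 41.5 CPM there, but all 81 of its UMIs lay in 3 cells. Itgb8 stood at 1.54 CPM on 3 UMIs.

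Costimulatory and checkpoint receptors were unevenly above the comparison, with 6 of 15 at least 2-fold higher, 1 lower and a median log2 ratio of 0.37. Beside those already named, Tnfrsf1b (TNFR2) stood at 97.1 CPM against 37.1 CPM and Pdcd1 (PD-1) at 167 CPM against 71.3 CPM, a log2 ratio of 1.23 (0.83 to 1.63). Tigit had a log2 ratio of 1.16 (0.27 to 2.06) on 26 UMIs. Cd28 leaned the other way, at -0.35 (-0.61 to -0.09), as did Cd200, at -0.92 (-1.42 to -0.44). The excess of Pdcd1 depended on the comparison cells: against the 133 Foxp3-zero CD4 cells without a Ccr7 UMI and with a Cd44 UMI, taken as activated cells, its log2 ratio was 0.37 (-0.12 to 0.87).

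Of the IL-2 pathway, the receptor was split by chain. Il2ra was the only one of 13 genes at least 2-fold higher, Il2 and Bcl2 were lower, and the list as a whole did not differ beyond counting error, with a log2 ratio of 0.03 (-0.07 to 0.13). Of the shared chains, Il2rb had a log2 ratio of 0.57 (0.26 to 0.88) and Il2rg one of 0.34 (0.11 to 0.56). Cish, a target of STAT5, had one of 0.98 (0.54 to 1.42). Il2 itself gave 0 UMIs in Treg, a limit of 4.1 CPM from 3 UMIs, against 30 UMIs or 22.7 CPM in 24 Foxp3-zero CD4 cells. Bcl2, the anti-apoptotic gene, stood at 28.7 CPM against 208 CPM, a log2 ratio of -2.86 (-3.57 to -2.22), while its relative Mcl1 had a log2 ratio of -0.36 (-0.59 to -0.14).

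Helper cytokines were scarce in Treg. The 12 genes summed to 68.4 CPM (50.8 to 90.1) in Treg and 432 CPM in Foxp3-zero CD4, a log2 ratio of -2.66 (-3.11 to -2.24), and 8 of the 12 had no UMI in Treg. Tnf alone gave 26 of the 50 UMIs in Treg, with a log2 ratio of -0.40 (-1.12 to 0.28). Il17a (mm10, chr1:20730905-20734496), the cytokine of the Th17 program, gave 0 UMIs in Treg against 191 in 49 Foxp3-zero CD4 cells, at least 35.3-fold lower, although 44 of the 191 came from 1 cell. Il17f was at least 14.4-fold lower, with 78 UMIs in 29 comparison cells. Il17a or Il17f was seen in 61 Foxp3-zero CD4 cells (9.74%) and in 0 of 272 Treg, which allows a share of up to 1.1%. Ifng gave 1 UMI in Treg and 55 in the comparison cells, and Cd40lg, the helper ligand for B cells, 9 and 66. Il13 was the exception, with 14 UMIs in 6 Treg against 7 in 5 comparison cells, and 8 of the 14 came from 1 cell. Other type 2 cytokines did not follow it: Il4 gave 0 and 13 UMIs, and Il5 none in either group.

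**Figure D2:**
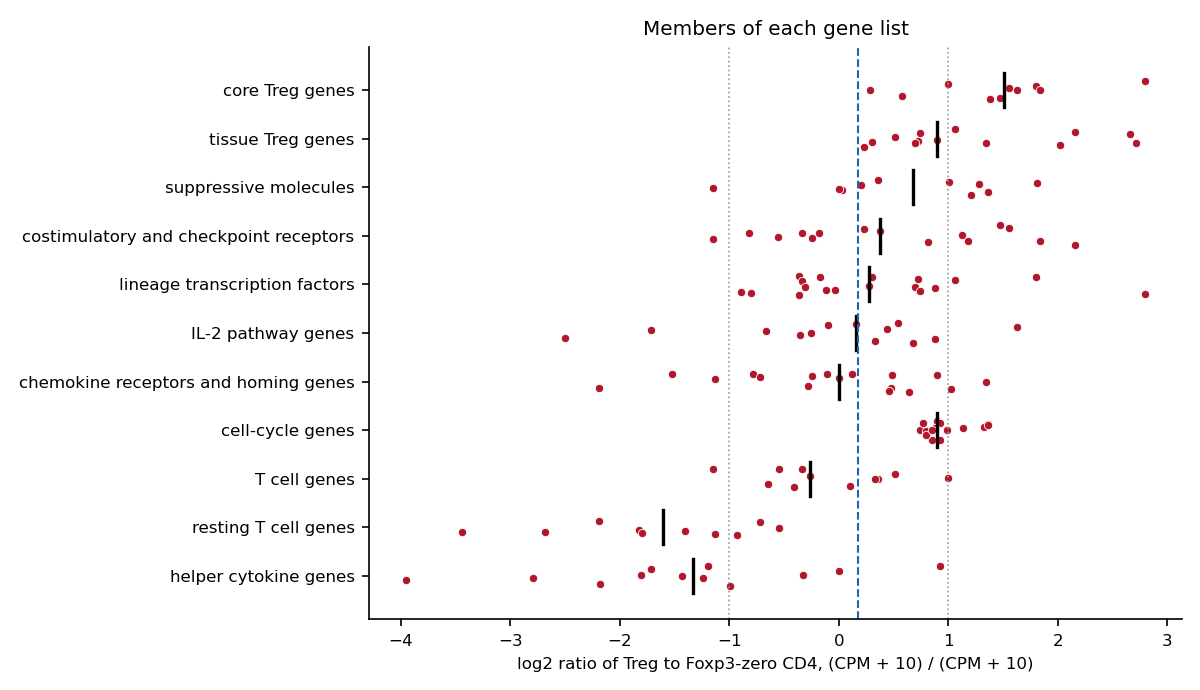
Each point is 1 gene, placed by its log2 ratio of Treg to Foxp3-zero CD4 after 10 CPM were added to both levels; black bars mark the median of a list, dotted lines 2-fold and the dashed line the median of all 2783 genes (0.18). The core list centers on 1.51, the resting list on -1.60 and the helper cytokine list on -1.33; genes that belong to several lists appear in each.

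Genes of resting, recirculating T cells were low in Treg. Of 10 such genes, 7 were at least 2-fold lower and none higher, the median log2 ratio was -1.60, and the list summed to 937 CPM (868 to 1010) against 2242 CPM. Tcf7 (TCF-1), a factor of naive and memory-forming T cells, stood at 23.2 CPM against 204 CPM, a log2 ratio of -3.13 (-3.93 to -2.43). Its partner Lef1 stood at 32.8 CPM against 142 CPM and the chromatin organizer Satb1 at 50.6 CPM against 200 CPM. Ccr7, which guides T cells to lymph nodes, stood at 31.5 CPM against 180 CPM, and Igfbp4 gave 2 UMIs against 169. The IL-7 receptor Il7r differed less, with a log2 ratio of -0.56 (-0.75 to -0.37). The gap was smaller with other comparison cells: against the activated Foxp3-zero CD4 cells the list's log2 ratio was -0.37 (-0.55 to -0.20) and that of Lef1 was 0.079 (-0.98 to 1.21), while Tcf7 and Bcl2 stayed low at -2.00 (-2.93 to -1.13) and -2.23 (-3.03 to -1.47). Ccr7 defined the activated cells, so its own part in the smaller gap was set by that choice.

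Among chemokine receptors and homing genes, 2 of 17 were at least 2-fold higher, 3 lower, and the median log2 ratio was 0.00. Ccr2, which follows monocyte chemokines, stood at 112 CPM against 50.03 CPM, and Itgae was the other. Ccr8, a receptor of tumor and skin Treg, had a log2 ratio of 1.33 (0.39 to 2.29) on 25 UMIs but stayed under the 2-fold size after 10 CPM were added. Ccr7, the lymph node exit receptor S1pr1 and the tissue-retention receptor Cxcr6 were the lower ones, Cxcr6 at 31.5 CPM against 109 CPM. Of 19 lineage transcription factors only Ikzf2, Ikzf4 and Prdm1 were at least 2-fold higher and none was lower. The factors that direct the Th1 and follicular programs were scarce in both groups, Tbx21 with 1 and 13 UMIs and Bcl6 with 7 and 20. Immediate early Nr4a1 and the inhibitor of DNA binding Id2 had log2 ratios of 0.90 (0.71 to 1.09) and 0.75 (0.56 to 0.94), and T cell genes outside the rule stayed near the comparison, with 0 of 11 at least 2-fold higher and Thy1 the 1 lower.

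The 15 genes highest and the 15 lowest in Treg by the ratio of (CPM + 10) included genes carried by a few cells with RNA of another lineage. Mgp, a matrix gene of fibroblasts, led the higher genes, but 430 of its 435 UMIs lay in 1 Treg, and the surfactant gene Sftpc was second among the lower genes, with 778 of its 1663 UMIs in 1 Foxp3-zero CD4 cell. When 22 Treg and 38 Foxp3-zero CD4 cells with at least 10 UMIs of a B cell, myeloid, epithelial, endothelial or stromal list were left out, Mgp, Sparc, Sftpc, Scd1, Cxcl15 and Slc34a2 were no longer past the 2-fold size in the given direction. The other genes of the 30 stayed past it, among them Ikzf2 at 2.96 (2.75 to 3.18), Klrg1 at 3.14 (2.59 to 3.72), Areg at 2.78 (2.44 to 3.13) and Hopx at 2.79 (2.36 to 3.24). Clu stayed on 17 UMIs against 1, but it too was carried by few cells. Before cells were left out, its 44 UMIs in Treg lay in 2 cells, with 27 in 1 of them. On the lower side Tbc1d4, a Rab GTPase-activating protein, held 4 UMIs against 160 in the remaining cells, Dapl1 0 against 94, and the CD30 ligand Tnfsf8 70 against 552.

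RNA of other lineages differed between the groups for some lists and not for others. The macrophage or monocyte list summed to 2057 CPM in Treg and 2239 CPM in Foxp3-zero CD4, with 7 Treg (2.57%) and 17 Foxp3-zero CD4 cells (2.72%) at 10 UMIs or more. The epithelial list summed to 249 CPM in Treg and 1634 CPM in Foxp3-zero CD4, where 1 cell held 843 of the 2155 UMIs. The stromal list summed to 711 CPM in Treg, with 514 of 520 UMIs in 1 cell, and 3.79 CPM in the comparison. The B cell list summed to 216 CPM in Treg and 97.0 CPM in Foxp3-zero CD4, a log2 ratio of 1.15 (0.81 to 1.503), and was seen in 93 Treg and 92 comparison cells. Of its 158 UMIs in Treg, 134 were of the immunoglobulin genes Ighm and Igkc. The endothelial list summed to 212 CPM against 128 CPM, a log2 ratio of 0.73 (0.40 to 1.05), the neutrophil list to 755 CPM against 958 CPM and the dendritic cell list to 544 CPM against 531 CPM. The CD8 or NK list summed to 185 CPM in Treg and 365 CPM in Foxp3-zero CD4. In Treg it came mainly from the chemokine Ccl5, with 82 of 135 UMIs in 21 cells, and its defining genes Klrb1c, Ncr1 and Gzmk had 0, 1 and 2 UMIs. The gamma-delta T or ILC2 list was higher in Treg, at 98.5 CPM against 54.6 CPM, a log2 ratio of 0.85 (0.36 to 1.34). The neuropeptide gene Calca gave 50 of its 72 UMIs, in 10 Treg with 28 in 1 cell, and Il13 gave 14, while Il5, Arg1, Tcrg-C1 and Tcrg-C2 were at 0.

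Against CD8 T cells, the core and tissue lists stood further apart than against Foxp3-zero CD4, with log2 ratios of 3.78 (3.65 to 3.91) and 2.80 (2.68 to 2.92), and the helper cytokine list less far, with -1.17 (-1.64 to -0.73). Of 2789 genes, 12.8% were at least 2-fold higher and 4.48% at least 2-fold lower in Treg, and 9 of 10 core genes and 11 of 13 tissue genes were higher, while 9 of 10 resting genes were lower. Areg stood at 21.8 CPM, Il1rl1 at 6.14 CPM and Klrg1 at 8.93 CPM in CD8 T cells. Against all other 18994 cells, where 9.12% of 3266 genes were at least 2-fold higher and 16.4% at least 2-fold lower, 8 of 10 core and 12 of 13 tissue genes were higher in Treg. Hopx, Nrp1 and Areg were not confined to T cells: Areg stood at 637 CPM in epithelial cells against 517 CPM in Treg, and Nrp1 at 496 CPM in endothelial cells against 88.9 CPM in Treg.

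More Treg than other T cells carried cell-cycle transcripts. Of 272 Treg, 30 (11.03%, 7.57 to 15.4) held at least 10 UMIs of 15 cell-cycle genes, compared with 21 of 626 Foxp3-zero CD4 cells (3.35%, 2.09 to 5.08) and 10 of 798 CD8 T cells (1.25%, 0.603 to 2.29). The class is a range cut from a count: 10 Treg lay just below it with 3 to 9 UMIs and 6 just above with 10 to 19, while 24 held 20 or more and 183 held none. The list summed to 1521 CPM against 720 CPM in Foxp3-zero CD4, a log2 ratio of 1.08 (0.95 to 1.20), with all 15 genes above the comparison and 4 of them, Birc5, Ube2c, Ccna2 and Nusap1, at least 2-fold. The proliferation marker Mki67 stood at 181 CPM against 90.2 CPM and the topoisomerase Top2a at 190 CPM against 108 CPM. At 1000 UMIs per cell, Top2a was seen in 9.28% of Treg and 2.37% of Foxp3-zero CD4. Against the activated Foxp3-zero CD4 cells the list's log2 ratio was smaller, at 0.46 (0.30 to 0.63).

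**Figure D3:**
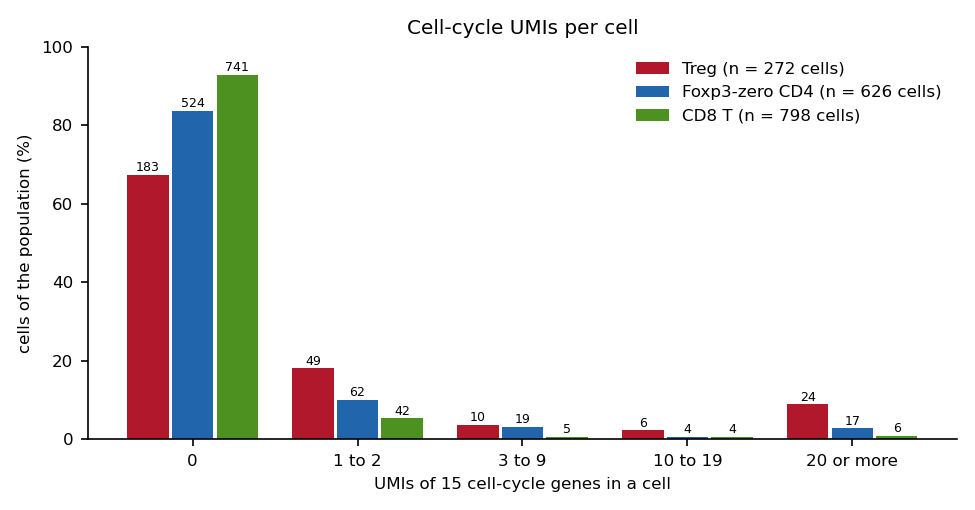
Share of cells, in percent, by the number of UMIs of 15 cell-cycle genes in a cell, for Treg, Foxp3-zero CD4 and CD8 T cells; the number over each bar is its count of cells. Treg have the fewest cells without such a UMI (183 of 272) and the largest share with 20 or more (24 of 272).

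The cycling Treg held less of several T cell gene lists per UMI, the Treg programs among them. They were far deeper, with a median of 6046 UMIs against 1751, and held 89.9% of the cell-cycle UMIs of all Treg. Within Treg, 9.95% of 3025 genes were at least 2-fold higher and 9.79% at least 2-fold lower in cycling cells. Core genes summed to 2947 CPM in the 30 cycling and 4922 CPM in the 242 other Treg, a log2 ratio of -0.74 (-0.87 to -0.61), with 3 of 10 at least 2-fold lower. Tnfrsf4 stood furthest apart, at 162 CPM against 706 CPM, Ctla4 stood at 494 CPM against 936 CPM, and Ikzf2 differed less, at 1111 CPM against 1554 CPM. Il7r stood at 166 CPM against 537 CPM and Id2 at 211 CPM against 727 CPM. The fall was not particular to core genes. The tissue list had a log2 ratio of -0.79 (-0.94 to -0.63) and the resting list -0.84 (-1.13 to -0.55). Costimulatory and checkpoint receptors stood at -1.01 (-1.17 to -0.85) and T cell genes at -0.26 (-0.40 to -0.11). CPM is a share of all UMIs, so these values are not amounts per cell. Lists of other cells moved with this split. The macrophage or monocyte list stood at 176 CPM against 2786 CPM, the dendritic cell list at 132 CPM against 704 CPM and the epithelial list at 108 CPM against 304 CPM. The endothelial list stood at 113 CPM against 250 CPM and the stromal list at 0 UMIs against 987 CPM. Single cells weighed on each of these among the Treg not cycling. The top cell held 577 of 1468 macrophage or monocyte UMIs, 183 of 371 dendritic cell UMIs and 86 of 160 epithelial UMIs. It held 44 of 132 endothelial and 514 of 520 stromal UMIs. The CD8 or NK list went the other way, at 392 CPM against 104 CPM, with 56 of its 80 UMIs in 1 cycling cell. The part of these lists of other cells in the split was not tested.

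Treg with and without the tissue genes differed in what else they expressed. The 179 Treg with an Il1rl1, Areg or Klrg1 UMI were compared with the 93 without one, these 3 genes being left out. The background was 2.98% of 3022 genes at least 2-fold higher and 2.22% lower. The suppressive list stood at 800 CPM against 461 CPM, a log2 ratio of 0.79 (0.48 to 1.13), with 3 of 10 genes at least 2-fold higher: Ebi3 at 83.3 CPM against 18.6 CPM, Fgl2 at 227 CPM against 83.8 CPM and Gzmb on 29 UMIs against 1. The rest of the tissue list had a log2 ratio of 0.49 (0.32 to 0.67), with Gata3 at 321 CPM against 177 CPM. Cxcr3, a receptor of Th1-type inflammation, leaned the other way, with 11 UMIs (21.3 CPM) against 28 (130 CPM). The neutrophil list stood at 995 CPM against 177 CPM, the epithelial list at 316 CPM against 88.5 CPM, the dendritic cell list at 649 CPM against 293 CPM and the gamma-delta T or ILC2 list at 136 CPM against 9.31 CPM. The stromal list stood at 1007 CPM against 0 UMIs, with 514 of its 520 UMIs in 1 cell. The macrophage or monocyte list (1696 against 2924 CPM), the B cell list (159 against 354 CPM) and the endothelial list (182 against 284 CPM) were lower. Single cells weighed on several of these lists. In the positive group 1 cell held 183 of the 335 dendritic cell UMIs and 1 held 86 of the 163 epithelial UMIs. For the neutrophil list it was 158 of 514, for the gamma-delta T or ILC2 list 28 of 70. For the macrophage or monocyte list it was 577 of 876, and 261 of 628 in the group without the genes. Epithelial cells themselves held Areg at 637 CPM, and neutrophils held Fgl2 at 692 CPM and Ebi3 at 58.9 CPM. Without the Treg that held at least 10 UMIs of another lineage's list, 163 cells against 87, the log2 ratio was 0.90 (0.55 to 1.26) for the suppressive list and 0.47 (0.29 to 0.66) for the rest of the tissue list.

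A cell with more UMIs is more likely to show any gene, and the 2 groups had medians of 1968 and 1575 UMIs, so the split was repeated with each Treg thinned to 1000 UMIs beforehand, which left 128 positive and 109 negative cells. The suppressive list then had a log2 ratio of 1.00 (0.52 to 1.496), the rest of the tissue list 0.40 (0.16 to 0.65) and the core list 0.40 (0.23 to 0.57), close to or above the values at full depth. Ebi3 gave 10 UMIs against 1, Fgl2 36 against 14 and Gata3 58 against 25, whereas the intervals of Gzmb (6 UMIs against 3) and Cxcr3 (4 against 10) then held 0. The resting list went from -0.56 (-0.78 to -0.33) to 0.01 (-0.34 to 0.36), and the cell-cycle list from 0.97 (0.74 to 1.20) to -0.14 (-0.57 to 0.30). Neither difference held in the thinned split, in which the members of the groups changed as well as the depth. Among resting genes Tcf7 gave 0 UMIs against 7 and Ccr7 2 against 8, while Klf2 gave 22 against 22. At full depth but without the cycling Treg, both lists kept their direction. The resting list then had a log2 ratio of -0.31 (-0.56 to -0.06) and the cell-cycle list 0.75 (0.10 to 1.44).

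Areg and Klrg1 were seen more often in Treg with Il1rl1 than in Treg without it. Of the 107 Treg with an Il1rl1 UMI, 57.0% (47.1 to 66.5) also had Areg and 44.9% (35.2 to 54.8) Klrg1, compared with 35.2% (27.9 to 43.0) and 21.8% (15.8 to 28.9) of the 165 Treg without one. After thinning, Il1rl1 was read anew, which gave 59 Treg with it and 178 without. The shares were then 49.2% (35.9 to 62.5) against 30.9% (24.2 to 38.2) for Areg and 40.7% (28.1 to 54.2) against 18.5% (13.1 to 25.04) for Klrg1. Both genes were still seen more often with Il1rl1. The intervals lay apart for Klrg1 and overlapped for Areg, which is not a test of either difference. Rora and Gata3 lay apart at full depth or nearly so, at 70.1% against 49.1% and 56.1% against 40.0%, but came close after thinning, at 40.7% against 30.3% and 32.2% against 26.4%. Thinning changed the members of the 2 groups as well as the depth, and the part of each was not tested.

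The count of Foxp3 UMIs itself told little more. Between the 92 Treg with 2 or more Foxp3 UMIs and the 180 with 1, 1.82% of 2920 genes were at least 2-fold higher and 1.92% at least 2-fold lower. The core list had a log2 ratio of 0.16 (0.05 to 0.26), the tissue list 0.11 (-0.02 to 0.23) and the resting list -0.16 (-0.40 to 0.08), and none of the 10 core or 13 tissue genes was 2-fold apart.

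**Figure D4:**
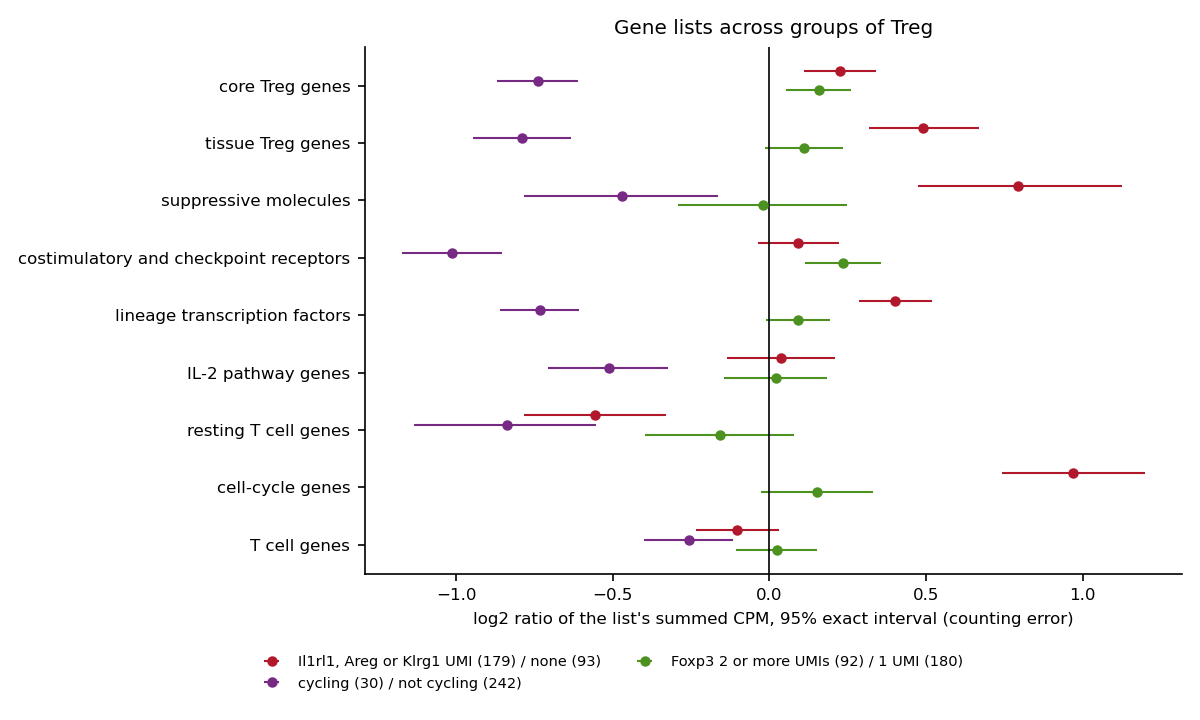
Log2 ratio of the summed CPM of each gene list, with exact 95% intervals for counting error, across 3 ways of dividing the 272 Treg at full depth, the genes that made a division being left out. Cycling Treg lie below 0 for 8 of the lists, the cell-cycle list not being shown for them. The division by Il1rl1, Areg or Klrg1 lies highest for suppressive and cell-cycle genes, of which the second did not hold in the thinned split.

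Ligands of Treg receptors were followed over classes of cells set by marker UMIs. Dendritic cells and monocytes were not set apart as classes, so their own levels of these ligands are not given. Il33, the ligand of Il1rl1, stood at 192 CPM (176 to 209) in 488 epithelial cells, 41.2% of which held a UMI, and at 63.6 CPM (41.9 to 92.5) in 106 stromal cells, compared with 0 to 3.03 CPM in the other classes. Ccl17, a ligand of Ccr4, stood at 2260 CPM in C1q macrophages against 6.84 CPM in Treg, and 1248 of the 2381 macrophages held a UMI. Ccl8, a ligand of Ccr8, stood at 141 CPM in the same class, but only 94 of its cells held a UMI. Cd86, a ligand that Ctla4 binds, stood at 288 CPM in C1q macrophages and 149 CPM in B cells. Il2 was found mainly in Foxp3-zero CD4 cells, at 22.7 CPM, with 7.25 CPM in CD8 T cells. Tgfb1 was broad, between 25.8 CPM in epithelial cells and 272 CPM in alveolar macrophages, with 228 CPM in Treg. Tnfsf4, the ligand of Tnfrsf4, stayed at or below 2.35 CPM in every class set here.

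**Figure D5:**
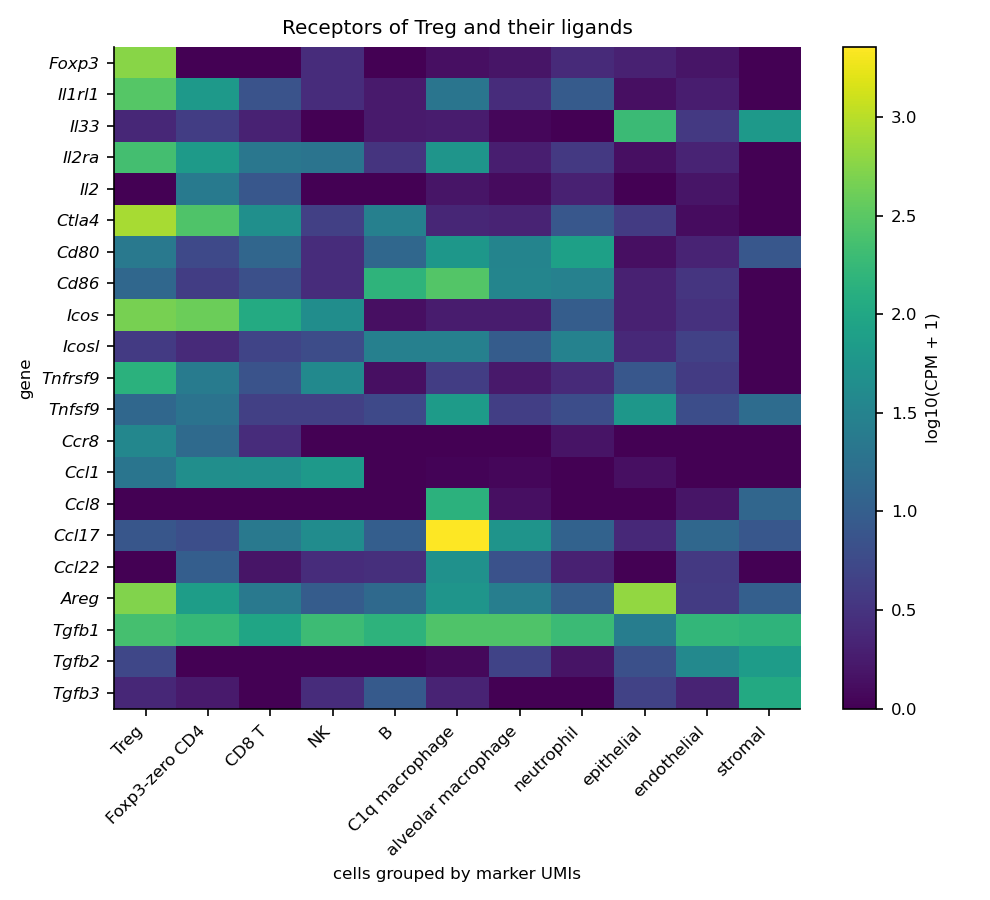
Level of genes for Treg receptors and their ligands, as log10(CPM + 1), in Treg and 10 other classes of cells set by marker UMIs. Dendritic cells and monocytes have no class of their own. Il33 is brightest in epithelial and stromal cells, Ccl17 in C1q macrophages and Il1rl1 in Treg, with Areg bright in both Treg and epithelial cells.

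The engineered features were counted in the same cells. Stk11, the gene symbol of Lkb1, gave 18 UMIs (24.6 CPM) in Treg and 22.7 CPM in Foxp3-zero CD4, a log2 ratio of 0.11 (-0.82 to 1.00). GFP, which the XTR allele expresses when trapped, gave 0 UMIs in both. The trap forms only after Cre acts, so this count does not check the allele in host cells. GFP was also low in alveolar macrophages, at 5.65 CPM with TdTomato at 2490 CPM. TdTomato UMIs were seen in 37 Treg (13.6%, 9.76 to 18.3) and 144 Foxp3-zero CD4 cells (23.0%, 19.8 to 26.5), at 149 and 264 CPM. These levels compare with 134 CPM in B cells and 5743 CPM in epithelial cells, and 25 of the 109 UMIs in Treg came from 1 cell.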

How the data were processed

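The authors sequenced droplet-based 3′ libraries of viable tumor cells from 4 mice, aligned reads with Cell Ranger 3.0.2 to an mm10 reference that also held GFP and TdTomato, and deposited unnormalized UMI counts for each cell. No cell could be assigned to a mouse, so the matrix was used as 1 sample. The sources used here do not give whether the libraries were brought to one depth when joined. Columns ranged from 500 to 46658 UMIs, and none was identical to another. Doublets were not removed; cells with 10 or more UMIs of another lineage's genes were left out in an alternative.

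Cells were taken by the rule given in the report, with the mitochondrial limit at the 98th percentile over 13 genes. UMIs were summed per group of cells and scaled to CPM (Python 3.11.15, scipy 1.17.1), with exact Poisson intervals for levels, Clopper-Pearson intervals for shares and exact conditional intervals for ratios of sums. A count of 0 was given a limit of 3 UMIs. Shares and splits were repeated on cells thinned to 1000 UMIs. Scripts were tested on simulated data. Gene positions come from GENCODE vM21.

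Named genes were all members of 21 gene lists (1 listed gene had no feature), TdTomato, GFP and Stk11, and, among genes at 50 CPM or more in either group and outside the rule, mitochondrial and immunoglobulin genes, the 15 furthest apart in each direction between Treg and Foxp3-zero CD4. The members, lists and comparisons were chosen with earlier results of these data known. Alternatives concerned the cell filters, the rule, the comparison cells, thinning, weighting of cells, the pseudocount and the CPM minimum; activated comparison cells, leaving out cells of other lineages or cycling cells, and these or thinning before a split of Treg, were added after the data were seen. Some planned results are not reported here.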

Additional observations from a re-analysis of the deposited data

How the results depend on the processing

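No paired analysis was possible because cells could not be assigned to mice, so no mouse could be left out and the spread between mice is unknown. In 74 of 110 recalculations the main value was taken as unchanged. For shares and ratios this meant within counting error, and for counts of genes within a fixed fold range. None of the main ratios reversed. With 2 Foxp3 UMIs required, the share of Treg among CD4-side cells was 12.8%, the core ratio 1.92 and the helper cytokine ratio -3.17 on the log2 scale, with 164 genes 2-fold higher. With a Cd4 UMI required of Treg, the share was 8.88%, the resting ratio -1.66, and 196 genes were higher and 110 lower. With comparison cells lacking Il2ra and Ikzf2, the share was 35.2%, the ratios 2.65 (core), 1.41 (tissue), -1.47 (resting), 1.12 (suppressive) and 1.73 (cell cycle), and 200 genes were higher. With activated comparison cells (no Ccr7, with Cd44), chosen after the data were seen, the share was 67.2%, the ratios 1.54, 0.82, -0.37, 0.28 and 0.46 in the same order, 63 genes were higher and 132 lower, and Lef1 reversed to 0.079 (-0.98 to 1.21). Each of these settings changed which cells entered, and the cause of the moves was not tested.

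Thinned to 1000 UMIs, the ratios were 2.11 (core), 1.34 (tissue) and 1.24 (cell cycle), with 238 genes higher. As a mean over cells they were 2.13 (core), 1.36 (tissue) and -1.05 (resting), with 175 genes higher. Without cycling cells, an alternative added after the data were seen, they were 2.04, 1.27 and 0.53 (cell cycle). With genes from 20 CPM, 175 were higher and 111 lower. The cause of the last 4 groups of moves was not tested. Depth limits genes of few UMIs, such as Il10 (3 in Treg), and the limit for an unseen gene in Treg was 4.1 CPM.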
